A study of Mus musculus with 2 samples.

Results

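Lipid droplet proteins and lipases were examined in single liver nuclei as 10 genes, *Plin2*, *Plin4*, *Plin5*, *Cidea*, *Cideb*, *Cidec*, *Pnpla2*, *Pnpla3*, *Hsd17b13* and *G0s2*, chosen by symbol from the 32285 genes of the count tables. All 10 were present. The nuclei were from male C57BL6/J mice fed a MASH (metabolic dysfunction-associated steatohepatitis) diet for 5 months from an age of 10 to 12 weeks. Fat gave 40% and fructose 20% of its calories, and 2% of it was cholesterol. The library labelled Flox came from *Themis* flox/flox mice. The library labelled HKO came from *Themis* Alb-Cre mice, in which the albumin promoter drives Cre, and so deletion of the floxed *Themis* allele, in hepatocytes. There was 1 library per genotype, each made from pooled liver of 4 mice per the study's methods, so there were no replicates and no test between the groups. All intervals are 95% intervals for counting error alone, and values are given with the Flox label first. What a difference in RNA per nucleus and a difference in the mix of nuclei each add to a summed level cannot be told apart.

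Hepatocytes store surplus fatty acids as triglyceride in cytosolic lipid droplets, whose surface carries a coat of proteins. Perilipins (*Plin2*, *Plin4*, *Plin5*) coat and shield the droplet, and CIDE proteins (*Cidea*, *Cideb*, *Cidec*) act where droplets touch and pass lipid from the smaller to the larger, or, for *Cideb*, also in the lipidation of VLDL. Adipose triglyceride lipase, encoded by *Pnpla2*, starts the breakdown of the stored triglyceride, *G0s2* encodes its inhibitor, and *Pnpla3* and *Hsd17b13* encode droplet proteins known from human genetics of fatty liver disease.

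The libraries held 9363 and 10748 barcodes with medians of 6216 and 2227.5 UMIs, and they shared 27 barcodes. After filtering and doublet removal, 8659 and 9801 nuclei were kept. Of these 5709 and 4172 were hepatocytes by their marker UMIs, with medians of 7459 and 5925 UMIs, and each of the 8 hepatocyte markers, which also served to choose them, was highest in these nuclei. Macrophages were 7.03% and 15.1% of kept nuclei, and HSCs (hepatic stellate cells) 9.17% and 11.6%. *Themis* itself went against the labels: its level in hepatocytes was 163 CPM and 246 CPM (UMIs of the gene per 1000000 UMIs), a ratio of HKO to Flox label of 1.51 (1.46 to 1.56). Counts from the 3′ end need not read the deleted stretch, so this is only a partial check. Every direction below is therefore a direction between the labelled libraries. The genotype cannot be told apart from any other difference between the 2 pools.

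In hepatocytes, *G0s2*, *Plin2* and *Pnpla2* were lower in the HKO-labelled library, *Pnpla3* was higher, and the other 6 members differed by less than 1.5-fold. Thus 1 of 10 members was at least 1.5-fold higher, against 7.16% of the 11167 genes with at least 200 UMIs, and 3 of 10 were at least 1.5-fold lower, against 9.78% of those genes. The median ratio of the 10 members was 1.01, and that of all genes was 0.986 with quartiles of 0.827 and 1.17. *Pnpla3*, the 1 member called higher, was also the 1 member under 200 UMIs, so the shares of all genes leave it out. Among the 9 members with at least 200 UMIs none was at least 1.5-fold higher and 3 were at least 1.5-fold lower.

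**Figure D1:**
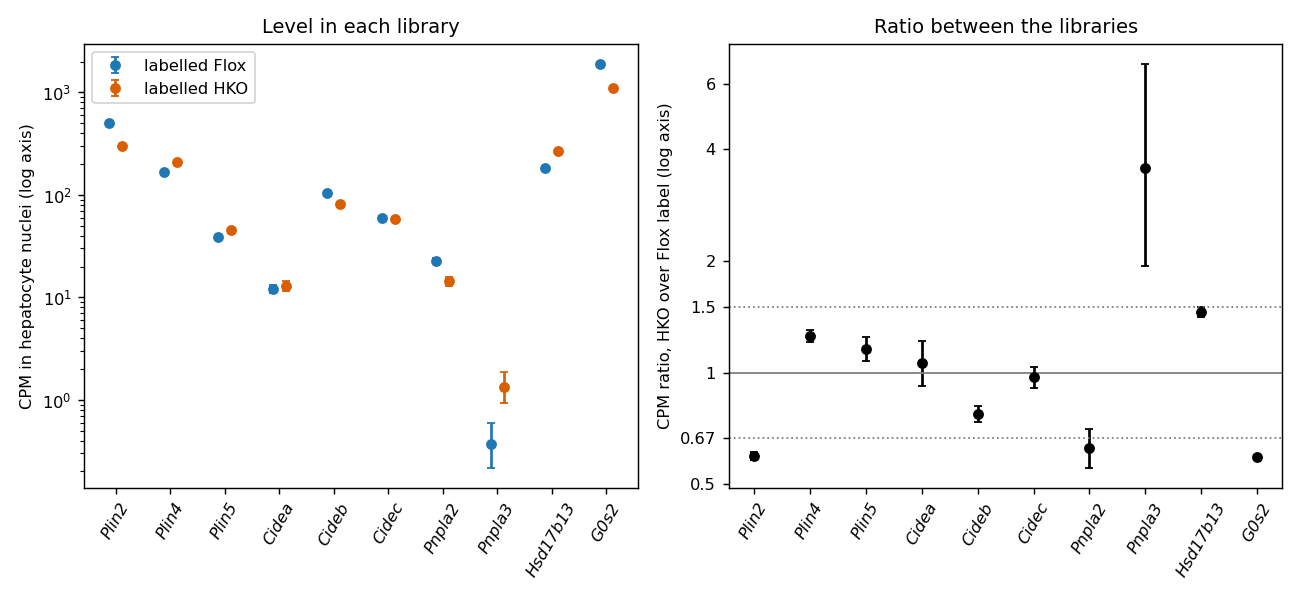
Level of each member in hepatocyte nuclei of the libraries labelled Flox (blue) and HKO (orange), in CPM on a log axis (left), and the ratio of HKO to Flox label on a log axis (right). Bars are 95% counting intervals and dotted lines mark 1.5-fold. *Plin2*, *Pnpla2* and *G0s2* lie below the lower dotted line at 0.595, 0.626 and 0.591, and *Pnpla3* lies above the upper one with a wide interval.

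*Plin2* (GRCm38 chromosome 4, 86648386 to 86670060, minus strand), the perilipin that coats droplets in most cells, stood at 500 CPM and 298 CPM in hepatocytes. Its ratio of 0.595 (0.580 to 0.611) means a level 1.68-fold lower in the HKO-labelled library. Of the genes compared, 5.50% had a lower ratio. The difference was seen at every depth: the ratio was 0.453 in nuclei under 2000 UMIs, 0.502 in nuclei of 2000 to 5000 UMIs, 0.632 at 5000 to 10000 UMIs and 0.593 above 10000 UMIs. The hepatocytes with at least 5000 UMIs, 4740 and 2725 nuclei, were thinned to 5000 UMIs, and shallower ones were left out. Among them the median nucleus held 2 *Plin2* UMIs in the Flox-labelled library and 1 in the HKO-labelled one. No *Plin2* UMI was found in 18.7% and 36.1% of those nuclei. The shift thus ran through the bulk of these deeper hepatocytes and was not set by a few nuclei.

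*G0s2* (chromosome 1, 193272161 to 193273217, minus strand), the inhibitor of adipose triglyceride lipase, had 84882 and 29040 UMIs in hepatocytes, or 1873 CPM and 1106 CPM. Its ratio was 0.591 (0.583 to 0.599). The median nucleus of 5000 UMIs held 7 *G0s2* UMIs in the Flox-labelled library and 4 in the HKO-labelled one, and the highest held 56 and 43. *G0s2* lies within the span of *Lamb3*, which is on the opposite strand. Whether counting used the strand is not given in the sources used here, so reads of overlapping genes are uncertain. The enzyme that it inhibits was lower as well: *Pnpla2* (chromosome 7, 141455198 to 141460743, plus strand) stood at 22.8 CPM and 14.3 CPM, a ratio of 0.626 (0.555 to 0.706). The call for *Pnpla2* was lost in a random thinning of nuclei to 1000 UMIs, with a ratio of 0.735, and with a pseudocount of 10 CPM, with 0.740. In another draw of that thinning the mean was 0.0211 and 0.0132 *Pnpla2* UMIs per nucleus, again past 1.5-fold. Only 119 and 54 thinned nuclei held a *Pnpla2* UMI, so a thinned ratio varies from draw to draw.

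**Figure D2:**
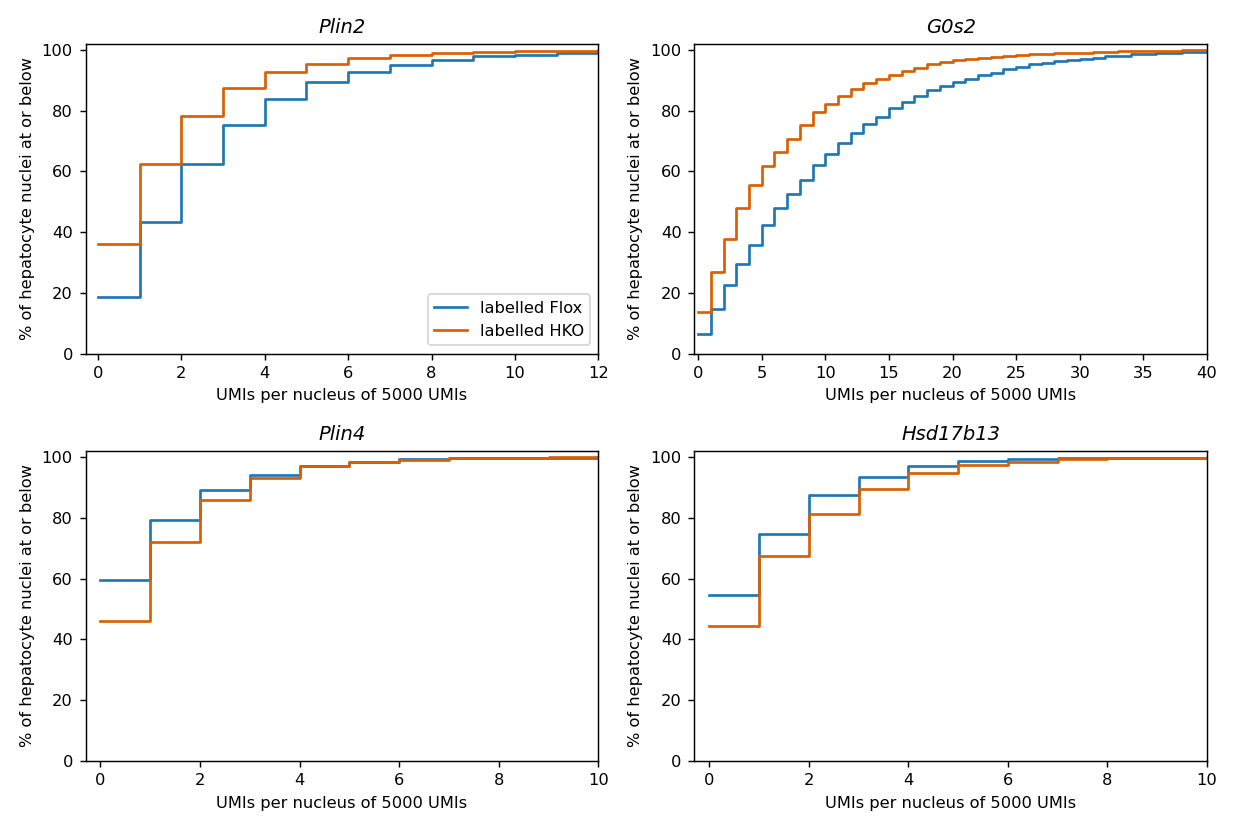
Cumulative share of hepatocyte nuclei (percent) at or below a number of UMIs of *Plin2*, *G0s2*, *Plin4* and *Hsd17b13*, in the libraries labelled Flox (blue) and HKO (orange). Only nuclei with at least 5000 UMIs are shown, 4740 and 2725, each thinned to 5000 UMIs. For *Plin2* the HKO curve starts at 36.1% and the Flox curve at 18.7%, and the curves stay apart over most of the range, as they do for *G0s2*. For *Plin4* and *Hsd17b13* the order is the opposite.

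The other perilipins went the other way by smaller amounts. *Plin4* (chromosome 17, 56100591 to 56109803, minus strand), a perilipin with a long repeat region that binds young droplets, stood at 168 CPM and 210 CPM, a ratio of 1.26 (1.21 to 1.30). Its end overlaps the end of *Hdgfl2* on the opposite strand. *Plin5* (56111601 to 56117596) lies next to it, 1798 bases away on the same strand, and encodes the perilipin that tethers droplets to mitochondria. It stood at 39.1 CPM and 45.2 CPM, a ratio of 1.16 (1.07 to 1.25). Both differences were larger than counting error and below 1.5-fold.

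Among the CIDE genes, only *Cideb* differed beyond counting error, and it was lower. *Cideb* (chromosome 14, 55754050 to 55758458, minus strand) stood at 105 CPM and 81.3 CPM, a ratio of 0.773 (0.734 to 0.814). It overlaps *Nop9* on the opposite strand. *Cidec* (chromosome 6, 113424634 to 113435760, minus strand), which drives the growth of large droplets, stood at 59.8 CPM and 58.1 CPM, with a ratio of 0.971 (0.911 to 1.03). *Cidea* had 550 and 337 UMIs, or 12.1 CPM and 12.8 CPM, with a ratio of 1.06 (0.921 to 1.21). For these 2 genes a difference between the libraries was not detectable over all hepatocytes at this depth. The level of *Cidec* hid opposite differences by depth. Its ratio was 1.10 (1.02 to 1.19) in nuclei of 5000 to 10000 UMIs and 0.721 (0.623 to 0.832) above 10000 UMIs, while the intervals below 5000 UMIs held 1. It also hid opposite differences within zones, which are given below.

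*Hsd17b13* (chromosome 5, 103955440 to 103977410, minus strand), a droplet dehydrogenase that lies next to its paralog *Hsd17b11*, stood at 183 CPM and 267 CPM. Its ratio of 1.46 (1.41 to 1.504) was just under the 1.5-fold limit, and 91.8% of the genes compared had a lower ratio. *Hsd17b11* did not share it, with 61.1 CPM and 57.3 CPM and a ratio of 0.939. By depth the ratio of *Hsd17b13* was 2.20 under 2000 UMIs, 1.46 at 2000 to 5000, 1.27 at 5000 to 10000 and 1.78 above 10000 UMIs. *Pnpla3* (chromosome 15, 84167837 to 84187236, plus strand), a relative of *Pnpla2* that binds its cofactor, was near the limit of detection, with 17 UMIs and 35 UMIs in all hepatocytes. That is 0.375 CPM and 1.33 CPM, a ratio of 3.56 (1.94 to 6.77), and it was 1.09 with a pseudocount of 10 CPM. The level of *Pnpla3* in single nuclei was too low to read: it had a UMI in 0.298% and 0.815% of hepatocytes before thinning.

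The promoters of the members that were lower together (*G0s2*, *Plin2*, *Pnpla2*), of *Plin4* and *Cidec*, which like *Plin2* and *G0s2* were lowest in periportal nuclei, and of *Hsd17b13* and *Pnpla3*, which were higher in the HKO-labelled library, are printed so that they can be compared. Each line holds the 120 bases before a RefSeq start site on GRCm38.p6, read 5′ to 3′ along the gene, with motif matches in capitals.
G0s2, chr1:193273189-193273308 (-): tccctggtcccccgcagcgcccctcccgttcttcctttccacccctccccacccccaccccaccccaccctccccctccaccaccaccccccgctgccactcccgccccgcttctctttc
Plin2, chr4:86670060-86670179 (-): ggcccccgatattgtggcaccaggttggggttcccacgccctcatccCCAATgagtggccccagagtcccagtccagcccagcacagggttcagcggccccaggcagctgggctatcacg
Pnpla2, chr7:141455068-141455187 (+): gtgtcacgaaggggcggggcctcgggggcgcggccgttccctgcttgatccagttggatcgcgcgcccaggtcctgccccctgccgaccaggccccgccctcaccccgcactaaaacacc
Plin4, chr17:56109783-56109902 (-): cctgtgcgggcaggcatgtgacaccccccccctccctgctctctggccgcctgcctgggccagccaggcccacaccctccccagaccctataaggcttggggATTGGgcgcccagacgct
Cidec, chr6:113435761-113435880 (-): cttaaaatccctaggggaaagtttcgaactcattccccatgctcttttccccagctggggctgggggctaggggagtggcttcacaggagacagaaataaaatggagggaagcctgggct
Hsd17b13, chr5:103977389-103977508 (-): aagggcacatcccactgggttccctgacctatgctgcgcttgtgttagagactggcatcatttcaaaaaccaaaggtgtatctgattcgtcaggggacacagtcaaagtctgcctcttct
Pnpla3, chr15:84167696-84167815 (+): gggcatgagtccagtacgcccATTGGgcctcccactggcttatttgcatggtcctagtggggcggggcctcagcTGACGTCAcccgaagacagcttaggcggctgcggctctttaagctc

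The search covered 11 RefSeq promoters of 9 of the 10 members, and *Cidea* was left out of it. The 250 bases before each start were searched on both strands for the E-box CACGTG, the cyclic AMP response element TGACGTCA, the C/EBP-type motif TTGCNNAA, the CCAAT box, the TATA box TATAAA and the direct repeat read by PPARs and HNF4A. No motif overlapped another. The 3 genes that were lower together shared no match in these windows: *Plin2* held CCAAT at -73 to -69, counted back from the start, and *G0s2* and *Pnpla2* held none of the 6. CCAAT was common, in 33.8% of the 32851 promoters of the table. *Plin4* held it as ATTGG, the other strand, at -18 to -14. *Plin5*, which is not printed, held CCAAT at -224 to -220 and ATTGG at -62 to -58 of the same start. *Pnpla3* held TGACGTCA at -46 to -39, a motif found in 1.55% of promoters, and CCAAT at -99 to -95. *Cidec* held TTGCTCAA, a C/EBP-type match (9.56% of promoters), at -198 to -191 of its other start, which is not printed. *Cideb* held TATAAA (12.4% of promoters) at -172 to -167. CACGTG, in 6.02% of promoters, and the direct repeat, in 0.338%, were in none of the 11 windows.

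Zonation was examined next, since hepatocytes near the central vein and near the portal tract differ in lipid handling. Hepatocytes with at least 0.1% of UMIs in *Glul* plus *Slc1a2* were called pericentral. They numbered 1065 in the Flox-labelled library and 706 in the HKO-labelled one, or 18.7% and 16.9% of hepatocytes. All 7 other pericentral markers checked were higher there, by 2.11-fold (*Cyp2e1*) to 30.3-fold (*Rhbg*) in the first library and by 1.92-fold to 35.6-fold in the second. Of 10 members in the Flox-labelled library, 1 was at least 1.5-fold higher in pericentral than in other hepatocytes, against 4.48% of 10435 genes, and 2 were at least 1.5-fold lower, against 6.13%. The 2 lower members were *Hsd17b13* and *Pnpla3*, and *Pnpla3* had under 200 UMIs and so is left out of that share. In the HKO-labelled library the counts were 1 of 10 higher, against 3.87% of 9354 genes, and 1 of 10 lower, against 5.24%.

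*Hsd17b13* had the steepest zonation of the members. In the Flox-labelled library it stood at 10.8 CPM in pericentral hepatocytes and 214 CPM in the others, and in the HKO-labelled one at 26.9 CPM and 308 CPM. Its pericentral level was 19.9-fold lower in the first library and 11.4-fold lower in the second. These pericentral values lie within or below the range of the types that should lack the gene, such as endothelial cells at 39.3 CPM and 33.1 CPM and macrophages at 23.8 CPM and 19.9 CPM, and are read as background. *Cidea* was higher in pericentral than in all other hepatocytes pooled, at 23.9 CPM against 10.0 CPM in the Flox-labelled library, a ratio of 2.39 (1.98 to 2.87). In the HKO-labelled library it stood at 19.3 CPM against 11.7 CPM, a ratio of 1.65 (1.26 to 2.14). The call for *Cidea* in the HKO-labelled library was lost when the zone needed 0.2% of UMIs, with a ratio of 1.37. The call for *Pnpla3* in the Flox-labelled library rests on 1 UMI against 16 UMIs.

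*Plin2* and *Plin4* differed between the libraries in how the pericentral level compared with that of all other hepatocytes pooled. *Plin2* stood at 499 CPM in pericentral and 500 CPM in the other hepatocytes of the Flox-labelled library, where the others pool classes of unlike level that are given below. In the HKO-labelled one it stood at 414 CPM and 278 CPM, a ratio of 1.49 (1.41 to 1.57). The zone ratio of *Plin2* was thus 1.49-fold (1.40 to 1.60) that of the other library. *Plin4* was 1.46-fold (1.38 to 1.54) higher in pericentral hepatocytes of the Flox-labelled library, at 228 CPM against 157 CPM, while in the HKO-labelled one it stood at 211 CPM and 210 CPM, a ratio of 1.01 (0.932 to 1.08). *G0s2* was 1.14-fold and 1.18-fold higher in pericentral hepatocytes, and *Plin5* stood at 0.873 and 0.874 times the level of the others, with intervals that reached 1. *Cideb* and *Pnpla2* lay between 0.997 and 1.20 times. *Cidec* was 1.22-fold (1.10 to 1.35) higher in pericentral hepatocytes of the first library and at 0.926 (0.796 to 1.07) in the second.

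The nuclei outside the pericentral class were then divided, in a step chosen after the data were seen, into periportal hepatocytes, with at least 0.1% of UMIs in *Hal*, *Gls2*, *Sds*, *Cyp2f2* and *Ctsc* together, and an intermediate class. There were 1626 and 856 periportal and 3018 and 2610 intermediate nuclei. In both libraries *Plin2*, *Plin4*, *Cidea*, *Cidec* and *G0s2* were lowest in the periportal class. *Plin2* stood at 333 CPM in periportal, 575 CPM in intermediate and 499 CPM in pericentral nuclei of the Flox-labelled library, and at 174 CPM, 314 CPM and 414 CPM in those of the HKO-labelled one. In the Flox-labelled library, *Plin4* stood at 18.7 CPM in periportal, 218 CPM in intermediate and 228 CPM in pericentral nuclei, and *Cidec* at 8.43 CPM, 80.0 CPM and 70.6 CPM. *Cidea* had 5 UMIs and 1 UMI in all periportal nuclei of the 2 libraries. In intermediate nuclei it stood at 14.3 CPM (12.9 to 15.8) and 15.7 CPM (13.9 to 17.8). In pericentral nuclei it stood at 23.9 CPM (20.4 to 27.8) and 19.3 CPM (15.2 to 24.3). The intervals of these 2 classes overlapped in the HKO-labelled library.

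**Figure D3:**
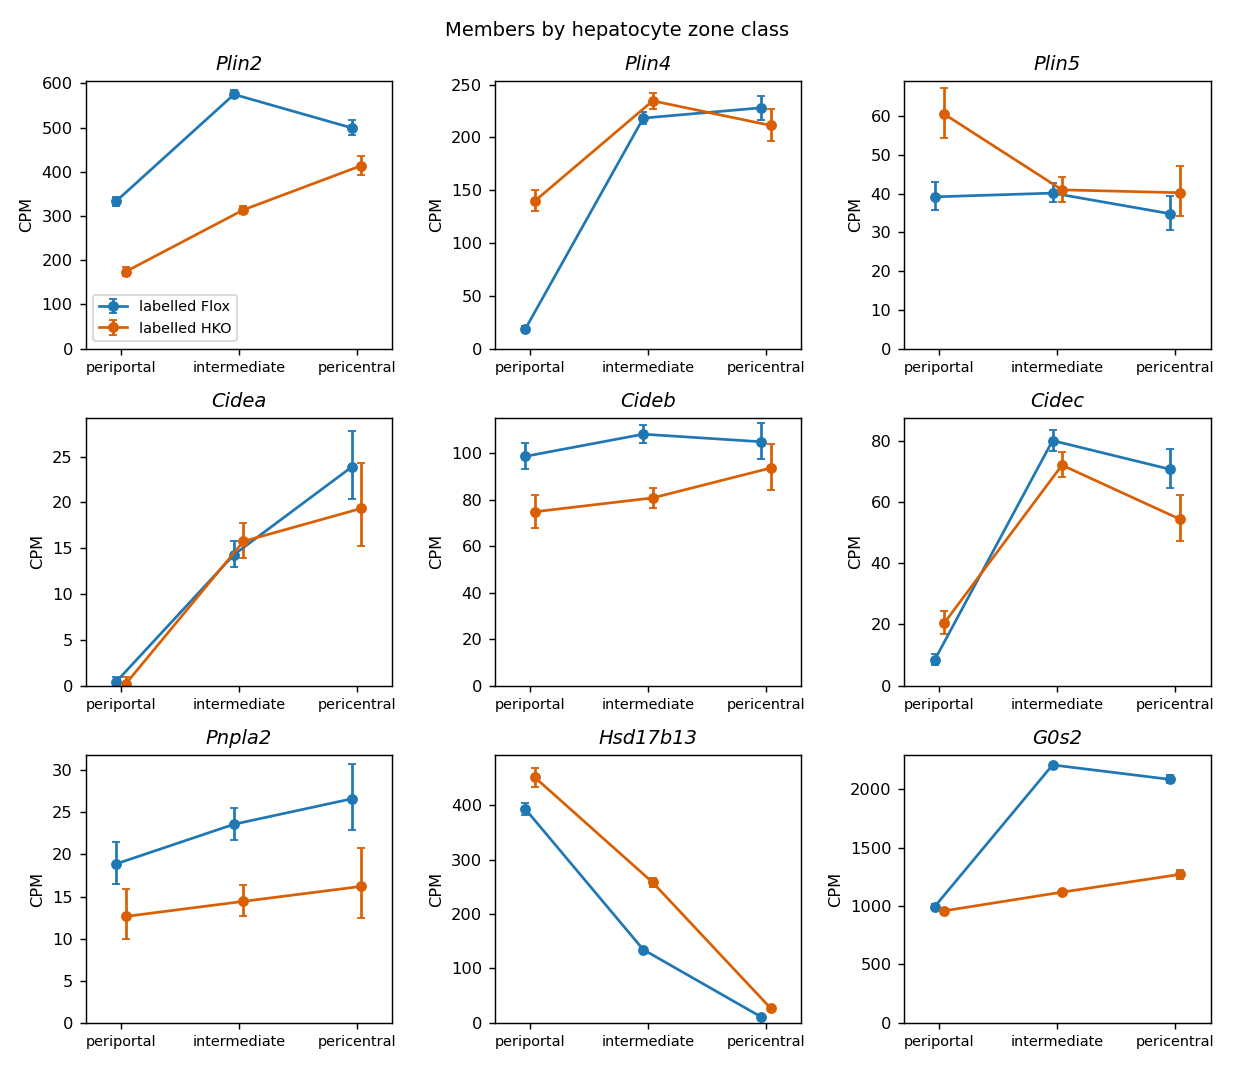
CPM of 9 members in periportal, intermediate and pericentral hepatocytes of the libraries labelled Flox (blue) and HKO (orange), with 95% counting intervals. Each panel has its own axis, which starts at 0. *Plin2*, *Plin4*, *Cidea*, *Cidec* and *G0s2* are lowest and *Hsd17b13* is highest in periportal nuclei of both libraries, and the lines for *Plin4* part at the periportal point, at 18.7 and 140 CPM.

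Among members with over 50 UMIs in each zone class, the largest difference between the libraries was in periportal *Plin4*. It stood at 18.7 CPM in the Flox-labelled library and 140 CPM in the HKO-labelled one, a ratio of 7.48 (6.44 to 8.71). In intermediate nuclei the levels were 218 CPM and 235 CPM, a ratio of 1.07 (1.03 to 1.12), and in pericentral nuclei the ratio was 0.927 (0.851 to 1.01). In nuclei thinned to 5000 UMIs, 8.08% (6.67 to 9.68) of 1324 periportal nuclei of the Flox-labelled library and 41.4% (37.5 to 45.5) of 596 of the HKO-labelled one held a *Plin4* UMI. The excess was thus spread over many nuclei. Without thinning the shares were 11.3% and 42.6%.

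How the periportal class was drawn changed the size of this difference. With *Hal* plus *Gls2* at 0.05% of UMIs, *Plin4* stood at 20.5 CPM and 88.2 CPM, a ratio of 4.31, and with *Cyp2f2* alone at 0.05% at 20.7 CPM and 198 CPM, a ratio of 9.52. The markers themselves differed in periportal nuclei, with *Sds* at 670 CPM and 1139 CPM and *Hal* at 347 CPM and 232 CPM. Of the pericentral markers in those nuclei, *Cyp2e1* was higher in the HKO-labelled library, at 160 CPM and 226 CPM, and *Oat* was lower, at 9.27 CPM and 3.46 CPM. *Themis* stood at 3.79 CPM and 57.5 CPM. The part of a shift in class borders in the *Plin4* difference was not tested.

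*Cidec* differed in opposite directions by zone. Its periportal level was 8.43 CPM and 20.4 CPM, a ratio of 2.42 (1.84 to 3.20), while its ratio was 0.900 (0.837 to 0.966) in intermediate and 0.770 (0.651 to 0.907) in pericentral nuclei. *Plin5* was higher in periportal nuclei, at 39.2 CPM and 60.6 CPM with a ratio of 1.55 (1.34 to 1.78), but with *Hal* plus *Gls2* as the markers the ratio was 1.06. In intermediate nuclei *Plin5* stood at 40.1 CPM and 40.99 CPM, a ratio of 1.02 (0.926 to 1.13).

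*G0s2* differed most in the intermediate class, and so did *Hsd17b13* once its pericentral values, read as background, were set aside. *G0s2* stood at 2209 CPM and 1120 CPM there, a ratio of 0.507 (0.498 to 0.515), and at 2085 CPM and 1272 CPM in pericentral nuclei, a ratio of 0.610 (0.590 to 0.630). In periportal nuclei the levels were 996 CPM and 960 CPM, a ratio of 0.963 (0.933 to 0.995). *Hsd17b13* stood at 134 CPM and 258 CPM in intermediate nuclei, a ratio of 1.92 (1.83 to 2.01), and at 392 CPM and 451 CPM in periportal nuclei, a ratio of 1.15 (1.09 to 1.21).

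*Plin2*, *Pnpla2* and *Cideb* were lower in the HKO-labelled library in each zone class. The ratio of *Plin2* was 0.522 (0.486 to 0.559) in periportal, 0.546 (0.529 to 0.563) in intermediate and 0.829 (0.781 to 0.880) in pericentral nuclei. For *Pnpla2* the 3 ratios were 0.669, 0.612 and 0.609, but with *Cyp2f2* alone as the periportal marker the first became 1.10. For *Cideb* they were 0.758, 0.747 and 0.892, and the pericentral interval (0.784 to 1.01) reached 1.

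**Figure D4:**
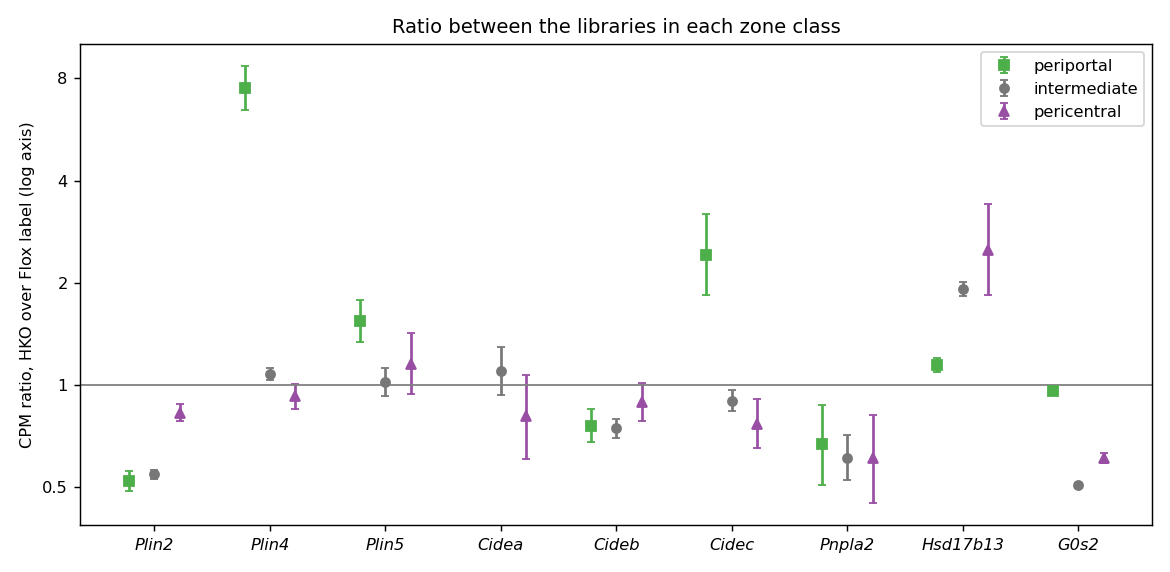
Ratio of HKO to Flox label on a log axis for 9 members in periportal (green squares), intermediate (grey circles) and pericentral (purple triangles) hepatocytes, with 95% counting intervals. The periportal point of *Cidea* is left out, as it rests on 5 UMIs and 1 UMI. *Plin4* stands at 7.48 and *Cidec* at 2.42 in periportal nuclei, and *Plin2* is nearest to 1 in pericentral nuclei, at 0.829.

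Members also differed in how they were spread over single hepatocytes. The ratio of variance to mean of UMIs in nuclei thinned to 1000 UMIs was 1.23 and 1.26 for *Plin4*, where genes of like mean had medians of 1.03 and 1.04. For *G0s2* it was 2.45 and 2.14 against 1.51 and 1.15, for *Hsd17b13* 1.21 and 1.23 against 1.03 and 1.06, and for *Plin2* 1.35 and 1.27 against 1.07 and 1.06. For *Plin5* it was 1.01 and 1.10 against 1.01 and 1.02, and for *Cidea* 1.05 and 1.11 against 1.01 and 0.992. *Cideb*, at 1.02 and 0.998, was close to its like genes at 1.02 and 1.03. *Plin5* exceeded the median of its like genes in the HKO-labelled library and not in the Flox-labelled one.

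Nuclei with *Plin4* held *Cidec* and *Cidea* more often, but not *Cideb*. This is a description over those hepatocytes of 1 library that had at least 5000 UMIs, thinned to 5000 UMIs. In the Flox-labelled library, *Cidec* had a UMI in 36.0% (33.8 to 38.1) of nuclei with *Plin4* and in 14.4% (13.1 to 15.7) of those without. In the HKO-labelled one the shares were 28.8% (26.5 to 31.2) and 20.2% (18.0 to 22.5). *Cidea* was found in 8.39% and 2.87% in the first library and in 7.91% and 2.86% in the second. *Cideb* was found in 39.5% and 40.1% in the first library and in 32.2% and 32.1% in the second. *Hsd17b13* went the other way in the Flox-labelled library, with 27.0% of nuclei with *Plin4* and 57.9% of those without, and less so in the HKO-labelled one, with 52.5% and 59.5%. These nuclei share the zones described above.

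Levels outside hepatocytes were compared over the 7 cell types with at least 50 nuclei in each library. Of the 140 levels of a member in a type and library, 78 rested on more than 3 UMIs. Hepatocyte transcripts were found in the other types too: the 8 hepatocyte markers stood in the other types together at 2.43% to 15.8% of their hepatocyte level in the Flox-labelled library and at 2.79% to 12.0% in the HKO-labelled one, with medians of 6.67% and 6.17%. That range was held down by the choice of nuclei, since a nucleus of another type had to have these markers under 0.15% of UMIs. *Alb*, which was not used to choose nuclei, stood at 48.1% and 37.3%. *Plin4*, *Plin5* and *Cidec* stood at 1.495% to 7.56% of their hepatocyte level in the other types together, *Cideb* at 8.96% and 9.35%, *G0s2* at 8.06% and 9.59%, and *Cidea* at 15.5% and 14.5%, all below *Alb*.

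*Pnpla2* was the member whose level in the other types exceeded that of *Alb* as a share of the hepatocyte level, apart from *Pnpla3* with its few UMIs. *Plin2* in the other types together was at 24.4% and 33.7% of its hepatocyte level, also below *Alb*, and was highest in macrophages, at 196 CPM and 181 CPM. The ratio between the libraries over all macrophages was 0.924 (0.789 to 1.08), a sum over subclasses of unlike level and number that are given below. In endothelial cells *Plin2* stood at 92.7 CPM and 52.1 CPM and in HSCs at 93.6 CPM and 64.1 CPM, with ratios of 0.562 (0.401 to 0.783) and 0.685 (0.529 to 0.886) near that of hepatocytes. The part of free hepatocyte RNA in the levels outside hepatocytes was not tested. *Pnpla2* was at 63.0% and 95.8% of its hepatocyte level in the other types together, with 22.4 CPM and 21.3 CPM in macrophages and 18.1 CPM and 17.4 CPM in endothelial cells. Its hepatocyte level was 1.59-fold (1.23 to 2.09) that of the other types in the first library and 1.04-fold (0.819 to 1.34) in the second.

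**Figure D5:**
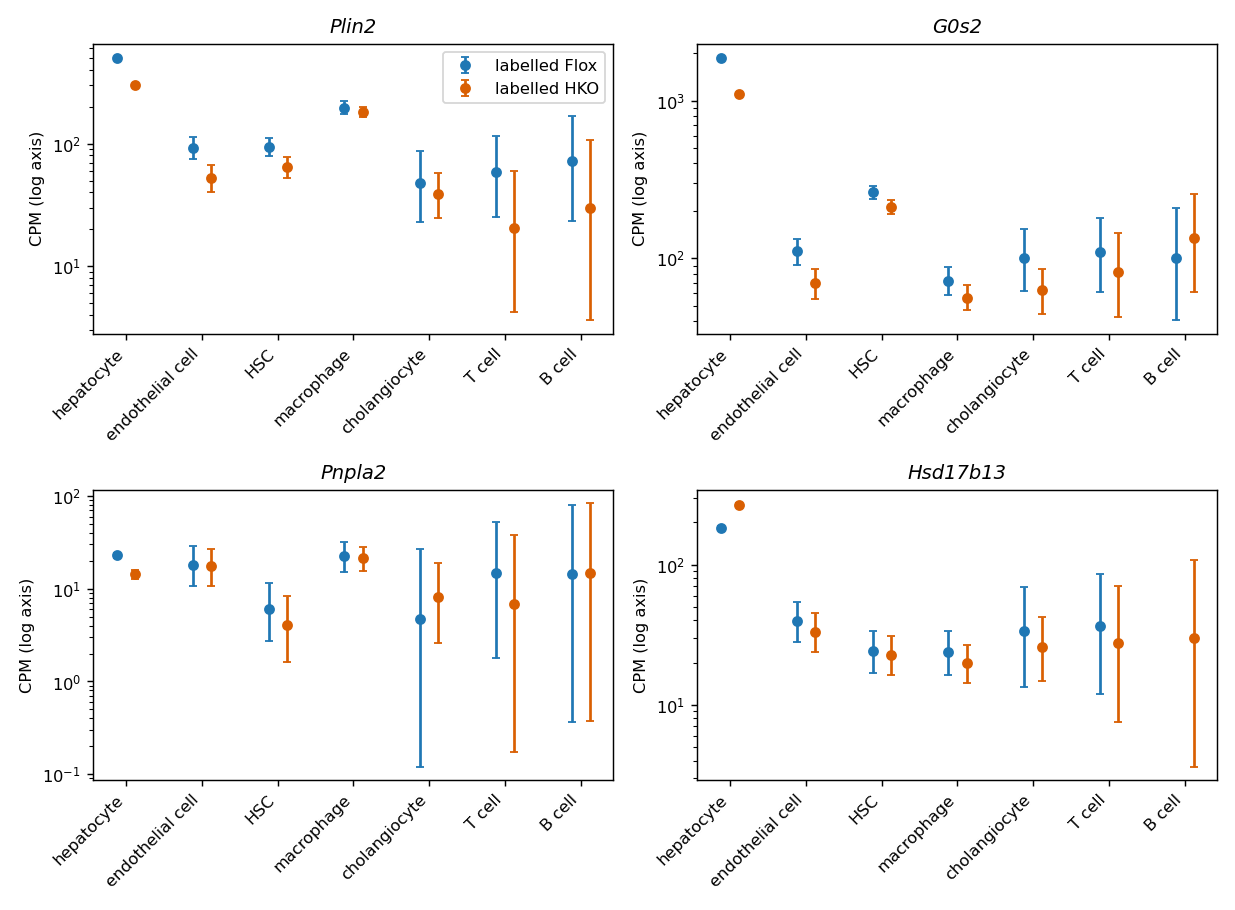
CPM on a log axis of *Plin2*, *G0s2*, *Pnpla2* and *Hsd17b13* in 7 cell types of the libraries labelled Flox (blue) and HKO (orange), with 95% counting intervals. Types without a UMI have no point, as for *Hsd17b13* in B cells of the Flox-labelled library. *Plin2* is second highest in macrophages, at 196 and 181 CPM, *G0s2* in HSCs, at 262 and 211 CPM, and *Hsd17b13* has a like low level in all types but hepatocytes.

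Subclasses of macrophages, HSCs and hepatocytes were drawn after the data were seen. Within macrophages, *Plin2* was higher in nuclei with at least 0.1% of UMIs in *Trem2* or *Gpnmb*, markers of lipid-associated macrophages, and less than 0.1% in Kupffer cell markers than in those with Kupffer cell markers. In the Flox-labelled library these stood at 846 CPM (579 to 1195) in 19 nuclei and 167 CPM (142 to 195) in 407 nuclei. In the HKO-labelled library they stood at 321 CPM (249 to 407) in 163 nuclei and 125 CPM (105 to 147) in 744 nuclei. The median nucleus of these subclasses held 1593 and 2184 UMIs in the Flox-labelled library and 1152 and 1434 UMIs in the HKO-labelled one. A limit in percent is met by fewer UMIs in a shallower nucleus, and the part of depth was not tested. The *Plin2* level was lower in the HKO-labelled library in the first subclass, and also in the second, where the intervals of the libraries overlapped, while the subclass with the higher level held more nuclei there. The order of the subclasses was the same in both libraries, though the first value rests on 32 UMIs. The class with *Trem2* or *Gpnmb* had 0 or 1 UMI of *Plin4*, *Plin5*, *Cidea* and *Cidec* in each library.

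*G0s2* was highest outside hepatocytes in HSCs, at 262 CPM and 211 CPM, where the other types lay between 56.4 CPM and 134 CPM. The ratio between the libraries in HSCs was 0.807 (0.698 to 0.934). In HSCs with fibrillar collagens at 0.2% of UMIs or more *G0s2* stood at 281 CPM and 195 CPM, and in the other HSCs at 247 CPM and 225 CPM. *Hsd17b13* lay between 19.9 CPM and 39.3 CPM in every other type with more than 3 UMIs, a like low level that is read as background. Since *Plin4*, *Plin5*, *Cidea* and *Cidec* are also fat cell genes, 6 adipocyte markers were counted in hepatocytes. *Adipoq* had 0 UMIs and 1 UMI, *Lep* none, *Plin1* 3 and 1 and *Retn* 6 and 2, while *Cfd* had 875 and 33 and *Adrb3* 1981 and 1545. The 6 together stood at 63.2 CPM and 60.3 CPM.

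Hepatocytes with *Cdkn1a*, a cell cycle inhibitor that also marks senescent cells, were set against those without it among nuclei of over 5000 UMIs. There were 331 and 547 nuclei with it, with medians of 8438 and 7440 UMIs, and 4409 and 2178 without, with medians of 7928 and 6914 UMIs. In the Flox-labelled library *Plin2* stood at 659 CPM (631 to 688) with *Cdkn1a* and 489 CPM (482 to 496) without, but in the HKO-labelled one at 316 CPM (300 to 333) and 310 CPM (302 to 319). *G0s2* was higher with *Cdkn1a* in both libraries, at 2254 CPM against 1843 CPM and at 1481 CPM against 1068 CPM. *Plin4* was higher as well, at 217 CPM against 164 CPM and at 264 CPM against 201 CPM. *Cidec* was higher with *Cdkn1a* in the Flox-labelled library, at 74.8 CPM (65.6 to 84.9) against 59.3 CPM (56.9 to 61.8). In the HKO-labelled one *Plin5* was higher, at 57.9 CPM (51.2 to 65.3) against 43.2 CPM (40.0 to 46.5). *Hsd17b13* was higher there too, at 277 CPM against 249 CPM. For *Cidec* and *Hsd17b13* the intervals overlapped in the other library. *Plin5* was higher with *Cdkn1a* in the Flox-labelled library too, at 47.6 CPM (40.3 to 55.8) against 38.3 CPM (36.4 to 40.3), where the intervals barely met. *Cidea* did not differ beyond its intervals. Zones were not matched, and the part of zone in these differences was not tested.

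Related genes of lipid storage were counted by list in hepatocytes. Of 24 other droplet proteins, lipases and cofactors 23 had at least 200 UMIs. Their median ratio was 0.878, with 1 at least 1.5-fold higher and 3 lower, against 7.16% and 9.78% of all genes. The highest were *Lpl*, lipoprotein lipase, at 3.60 CPM and 11.1 CPM (ratio 3.08), and *Plin3*, the perilipin of small droplets, at 51.3 CPM and 75.1 CPM (1.46). The lowest were *Ces3a*, a carboxylesterase, at 1646 CPM and 661 CPM (0.401), and *Fitm1*, a protein of droplet formation, at 34.5 CPM and 14.3 CPM (0.414). Reads of the *Ces* paralogs may be shared among them. The activator of the lipase encoded by *Pnpla2*, *Abhd5*, at 16.4 CPM and 20.4 CPM (1.25), and the next lipases, *Lipe* (0.770) and *Mgll* (0.905), stayed under 1.5-fold.

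Of 16 genes of triglyceride and sterol ester synthesis, 13 had at least 200 UMIs, and their median ratio was 1.25, with 2 higher and 1 lower, against the same 7.16% and 9.78%. The highest were *Lpin1*, a phosphatidic acid phosphatase, at 174 CPM and 409 CPM (2.35), and *Gpam*, which makes the first acyl transfer, at 157 CPM and 287 CPM (1.82). The lowest were *Agpat2*, the next acyltransferase, at 109 CPM and 54.1 CPM (0.494), and *Acsl1* (0.762). *Dgat1* and *Dgat2*, which make the last step to triglyceride, had ratios of 0.938 and 0.978. Steps of 1 pathway thus differed in both directions.

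All 8 genes of VLDL assembly passed 200 UMIs and none reached 1.5-fold in either direction, against 7.16% and 9.78% of all genes, with a median ratio of 0.960, from *Sar1b* (0.745) and *Apob* (0.826) to *Mia3* (1.04) and *Tm6sf2* (1.25). All 18 genes of fatty acid uptake and lipid transcription factors passed, with a median of 1.05, 5 higher and 3 lower, against 7.16% and 9.78% of all genes. The highest were *Vldlr*, the VLDL receptor, at 4.68 CPM and 24.7 CPM (5.27), and *Fabp4*, a fatty acid carrier, at 2.38 CPM and 12.0 CPM (5.02). The lowest were *Slc27a5*, a bile acid and fatty acid CoA ligase, at 189 CPM and 86.3 CPM (0.456), and *Fabp1*, the liver carrier, at 640 CPM and 379 CPM (0.592). Markers of other types were found in hepatocytes too, at levels held down by the choice of nuclei. The 15 macrophage markers stood there together at 34.4 CPM and 37.8 CPM, and the 10 endothelial ones at 24.5 CPM and 26.7 CPM. The part of RNA from other types in the low levels of *Fabp4* and *Lpl* was not tested.

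*Pparg*, which encodes a nuclear receptor with known targets among droplet genes, also had a pericentral excess in the Flox-labelled library that was smaller in the HKO-labelled one, as *Plin4* had. Its level over all hepatocytes was 27.3 CPM and 28.6 CPM, a ratio of 1.05 (0.955 to 1.15). It was 1.95-fold higher in pericentral than in other hepatocytes of the Flox-labelled library and 1.15-fold in the HKO-labelled one. *Cd36* went from 1.89-fold to 1.02-fold. These 2 genes were chosen after their values were seen, and other listed genes, such as *Vldlr*, changed in the same direction. The share of all genes with such a change was not counted, and a link to *Plin4* was not tested.

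The genes whose levels were most like those of a member were sought over the 14 combinations of cell type and library among 10660 genes with at least 500 UMIs, by Pearson's r of log2(CPM + 5). For *Plin2* they were *Cyp27a1* (0.944), *Hist1h4c* (0.917) and *Gm49312* (0.885), for *Pnpla2* *Wdr91* (0.898), *Lipe* (0.888) and *Bnip2* (0.872), and for *G0s2* *Gm4952* (0.959), *Gm31600* (0.941) and *Creb3l3* (0.939). The points share 2 libraries and their free RNA, and the values are a description.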

How the data were processed

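Single-nucleus RNA-seq of liver was analysed from 2 libraries, 1 per genotype. The authors deposited unnormalized UMI counts per gene and barcode, made with Cell Ranger 8.0.1 on GRCm38 with intronic reads excluded. RNA still unspliced is thus counted only by its exonic reads. 3′ counts are not comparable between genes. The labels' field on genotype gave the groups; the title of the Flox library also reads WT.

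Nuclei with at least 300 genes were kept, and the highest-scoring doublets (0.8% per 1000 barcodes) were removed with Scrublet in scanpy 1.11.5 (Python 3.11.15, numpy 2.4.6, scipy 1.17.1, pandas 2.3.3), 701 and 920 barcodes. A hepatocyte had at least 3 UMIs and 0.1% of UMIs in 8 markers and no other type at 3 UMIs and 0.1%; other types needed 3 UMIs and 0.2%, with hepatocyte markers under 0.15%. UMIs were summed per type and library and scaled to CPM. Intervals were exact Poisson ones (CPM), exact conditional binomial ones (ratios), exact Clopper-Pearson ones (shares) and a normal approximation on the log scale for ratios of ratios, all at 95%. With 1 library per group no test was run. The code was tested on simulated data.

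The members and lists were chosen with earlier results of these data known. All 10 members are named; in related lists the 2 highest and 2 lowest ratios are named, and the 3 most like genes for 3 members. Other genes serve as markers or cofactors or were chosen after their values were seen. Gene positions are from GENCODE vM21, and promoters from RefSeq (GRCm38.p6). Alternatives were other filters, scalings, marker rules and zone limits, and, added after the data were seen, other periportal rules.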

Additional observations from a re-analysis of the deposited data

Results flagged for a closer look

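*Cidec* stood out because its ratio between the libraries went opposite ways in different zone classes, with intervals clear of 1. It was 2.42 in periportal hepatocytes, against 0.900 in intermediate and 0.770 in pericentral hepatocytes. The difference between the zones was not tested, since each zone and genotype has 1 library. The periportal ratio of *Cidec* lay between 2.26 and 2.71 under the 4 other periportal settings tried. Groups of 1 library allow no search for libraries far from the rest.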

How the results depend on the processing

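In hepatocytes 3 members stayed lower under 8 of 10 alternatives. The count was 2 under a random draw of thinning to 1000 UMIs and under a pseudocount of 10 CPM, where *Pnpla2* left it. The 1 member that was higher, *Pnpla3*, left with that pseudocount, giving 0. *Plin2* ranged from 0.561 to 0.604, *G0s2* from 0.570 to 0.633, *Hsd17b13* from 1.43 to 1.49 and *Plin4* from 1.20 to 1.30. Counts of members at least 1.5-fold higher in pericentral hepatocytes were 2 in each library with a zone limit of 0.05% of UMIs (*Plin4*, 1.56, joined for Flox and *Plin2*, 1.51, for HKO), and, in the HKO-labelled library, 0 with a limit of 0.2% and 2 with median-of-ratios scaling. In pericentral hepatocytes the ratio of HKO to Flox label for *Hsd17b13* went from 2.50 to 1.49 when doublets were kept. The cause was not tested. In periportal hepatocytes *Plin4* ranged from 4.31 to 9.52 and *Plin5* from 1.06 to 1.60. No ratio of at least 1.5-fold changed direction, but periportal *Pnpla2* went from 0.669 to 1.10 with *Cyp2f2* alone and periportal *G0s2* from 0.963 to 1.03 in nuclei of at least 5000 UMIs. The periportal settings were chosen after seeing the data. No paired analysis was possible because each group has 1 library, and none could be left out. Depth limits *Pnpla3* everywhere, *Cidea* in periportal nuclei, and most members in T and B cells.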
